A study of Mus musculus with 12 samples.

Results

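Cells sense falling oxygen through a transcription factor, hypoxia-inducible factor (HIF), and 9 genes of that response are described here in mouse macrophage-like cells given estradiol and in lung lavage macrophages of pregnant mice. The genes are Hif1a, which encodes the oxygen-regulated subunit of HIF, and Egln3, Bnip3, Ndrg1, Adm, Vegfa, Slc2a1, Aldoc and Pdk1, which are known to be induced in hypoxia. They are 9 of the 12393 genes measured, with 22 of the 20380 probe sets that were paired with a single gene symbol. All of their probe sets were taken. The list was chosen by gene name with results of both the estradiol and the pregnancy comparison in view, and Ndrg1 was selected on its p-value in the pregnancy comparison, the smallest of all genes. Values of these 2 comparisons are therefore given as a description, and a call that was known when the list was drawn up is no independent evidence.

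Oxygen acts on HIF mainly at the level of protein. When oxygen is present, the EGLN prolyl hydroxylases mark the alpha subunit, the VHL ubiquitin ligase binds the mark, and the subunit is degraded. In hypoxia the subunit lasts, pairs with ARNT and binds DNA at a short core motif near its target genes. In macrophages HIF is known for its part in the switch to glycolysis during activation, and Hif1a mRNA is a poor gauge of the amount of HIF protein. The targets among the 9 genes serve glucose entry (Slc2a1), glycolysis (Aldoc), the brake on mitochondrial pyruvate use (Pdk1), removal of mitochondria (Bnip3), signals to vessels (Vegfa, Adm), feedback on HIF itself (Egln3) and stress responses and differentiation (Ndrg1).

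Affymetrix mouse arrays had been hybridised with total RNA of 12 samples, 3 in each of 4 groups. RAW264.7, a macrophage-like line and thus a single cell line, was cultured overnight with estradiol at 1 ug/mL, and its reference was RAW264.7 labelled unstimulated, which the design text calls vehicle. Cells from bronchoalveolar lavage, a wash of the airspaces, came from pregnant mice and from control mice and went straight to RNA extraction. The labels attach the estradiol treatment to the lavage samples as well, which conflicts with the design text, and groups were taken from the group label. No genotype, strain, age, stage of pregnancy or sorting step is given, and replicates were numbered in deposit order. Nothing states that replicates came from separate cultures or animals, so the p-values cover the spread among the deposited samples alone, and that spread may be technical.

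The deposited values were RMA intensities on a linear scale, and levels below are log2(intensity + 1), so that a change is a difference on that scale. A gene was read from its probe set with the highest mean unless several are named, and levels of different genes or probe sets cannot be set against each other. A gene was called where its adjusted p in limma was under 0.05. No detection calls were used here, and a probe set is termed dim where at most 2 of the 6 arrays had it above the 40th percentile of all their probe sets. Array medians lay between 369 and 393, and arrays of a group correlated at 0.995 to 0.999 (Pearson, log2 values). Estradiol replicate 2 had the largest actin difference between the 3' and 5' ends of the transcript, at 0.74 (log2), where the remaining RAW264.7 arrays had 0.39 to 0.48. All 12 macrophage markers were above the 40th percentile on every lavage array, and 7 of 12 were on every RAW264.7 array, where Marco, Siglecf, Chil3, Pparg and Car4 were not. The lavage arrays also carried epithelial transcripts, with 6 to 10 of 10 markers above that percentile in pregnant samples and 6 to 9 of 10 in control samples.

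The promoters of the genes that were lower with estradiol are shown because HIF binds a core motif of ACGTG or GCGTG. The 250 bases upstream of the first listed start site are printed 5′ to 3′ on the gene's strand, from RefSeq on build GRCm38.p6, with matches to either motif on either strand in capitals. The Slc2a1 promoter, of a textbook HIF target that was not called with estradiol, is set beside them. The windows are chr7:138909507-138909756 on the minus strand for Bnip3, chr12:54203875-54204124 on the minus strand for Egln3, chr7:110627407-110627656 on the plus strand for Adm, chr11:78322823-78323072 on the plus strand for Aldoc and chr4:119108495-119108744 on the plus strand for Slc2a1.
Bnip3: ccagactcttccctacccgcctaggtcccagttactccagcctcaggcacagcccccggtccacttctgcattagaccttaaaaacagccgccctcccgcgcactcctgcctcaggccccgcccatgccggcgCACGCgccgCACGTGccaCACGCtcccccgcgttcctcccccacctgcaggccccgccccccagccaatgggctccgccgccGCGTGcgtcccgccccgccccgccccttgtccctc
Egln3: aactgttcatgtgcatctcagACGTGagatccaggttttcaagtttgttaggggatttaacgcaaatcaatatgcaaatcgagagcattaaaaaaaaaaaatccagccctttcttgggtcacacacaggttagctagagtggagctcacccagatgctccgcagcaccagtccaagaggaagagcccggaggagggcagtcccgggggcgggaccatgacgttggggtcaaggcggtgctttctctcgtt
Adm: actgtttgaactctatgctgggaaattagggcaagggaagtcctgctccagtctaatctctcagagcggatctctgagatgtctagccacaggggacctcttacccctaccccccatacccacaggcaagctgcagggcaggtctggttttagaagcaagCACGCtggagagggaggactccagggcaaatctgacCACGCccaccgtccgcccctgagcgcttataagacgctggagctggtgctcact
Aldoc: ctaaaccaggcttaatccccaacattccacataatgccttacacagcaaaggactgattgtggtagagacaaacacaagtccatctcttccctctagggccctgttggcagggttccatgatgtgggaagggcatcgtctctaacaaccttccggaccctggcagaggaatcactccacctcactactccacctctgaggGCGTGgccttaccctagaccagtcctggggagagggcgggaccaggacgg
Slc2a1: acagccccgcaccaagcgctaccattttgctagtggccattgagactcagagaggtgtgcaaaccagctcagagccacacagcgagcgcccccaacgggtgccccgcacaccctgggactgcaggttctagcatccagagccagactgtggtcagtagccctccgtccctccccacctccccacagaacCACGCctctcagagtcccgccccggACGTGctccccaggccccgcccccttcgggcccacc
Bnip3 held 5 matches in this window, Adm and Slc2a1 held 2 each, and Egln3 and Aldoc held 1 each. A pair of the Bnip3 matches, 1 on each strand, overlaps in the palindrome CACGTG, which is also the E-box bound by other factors. The RefSeq promoter table matched 8 of the 9 genes with 11 start sites, and 9 of these 11 windows held a match. It had no entry for Ndrg1, whose promoter was therefore not searched. Of all 32851 promoters in that table, 38.6% held one in a window of the same length, with ACGTG in 16.6%, GCGTG in 28.2% and CACGTG in 6.02%. A match is a run of letters and was not tested for binding, and the called and uncalled genes both held matches.

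The estradiol comparison asks what the hormone did to RAW264.7 cells. Adm, Egln3, Bnip3 and Aldoc were lower with estradiol, with log2 changes of -1.02, -0.70, -0.55 and -0.40, whereas Ndrg1, Slc2a1, Hif1a, Pdk1 and Vegfa were not called. Thus 4 of the 9 genes were called, all of them lower, where 11.4% of all genes were called and 4.66% were called lower. The median change of the 9 genes was -0.10, against 0.02 over all genes. Without unstimulated replicate 1, 2 or 3, or without estradiol replicate 3, 2 of the 9 genes were called. In the plot of levels by group the 3 estradiol arrays of these 4 genes lie below the 3 unstimulated ones.

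**Figure D1:**
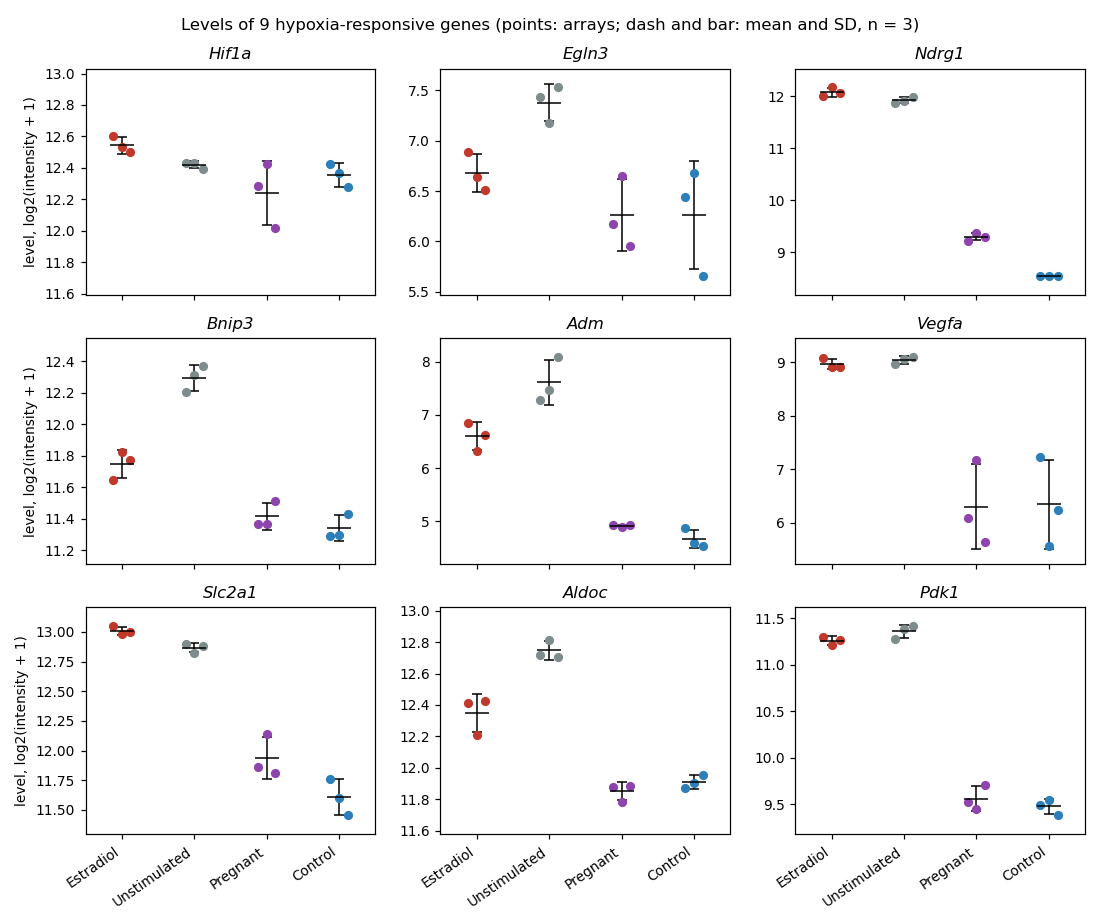
Level of each of the 9 genes, as log2(intensity + 1), on every array of the estradiol, unstimulated, pregnant and control groups; points are arrays, and dash and bar are the mean and SD (n = 3). Adm, Egln3, Bnip3 and Aldoc lie lower in estradiol than in unstimulated RAW264.7 cells, and Ndrg1 lies at 9.22 to 9.36 in pregnant and at 8.54 in control lavage samples.

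Bnip3, a mitochondrial outer membrane protein that directs mitochondria to autophagy, was at 11.64, 11.82 and 11.77 in estradiol cells, against 12.21, 12.31 and 12.37 in unstimulated cells. The highest estradiol array lay below the lowest unstimulated array. The fitted change was -0.55 ± 0.07 (SE, n = 3 each; limma adjusted p = 0.00387). This call remained under all 15 other ways of fitting that were tried, with changes of -0.59 to -0.50. Bnip3 has 1 probe set on the array.

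Adm, the vessel-dilating peptide adrenomedullin, had levels of 6.84, 6.32 and 6.62 in estradiol cells, against 7.29, 7.47 and 8.09 in unstimulated cells. The groups did not overlap, and unstimulated replicate 3 was the highest. The change of -1.02 ± 0.22 (SE, n = 3 each), 2.03-fold lower, was the largest of the 9 genes (limma adjusted p = 0.0310). Only the unstimulated arrays lay above the 40th percentile, so the estradiol level is a dim one. Without estradiol replicate 2, the array with the largest 3' to 5' difference, the change was -0.88 and the limma adjusted p 0.0679, and the call was also lost without unstimulated replicate 2 or estradiol replicate 3 (limma adjusted p = 0.0806 and 0.0855).

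Egln3, the prolyl hydroxylase that is itself induced by HIF, was at 6.89, 6.64 and 6.51 in estradiol cells, against 7.43, 7.17 and 7.53 in unstimulated cells. All estradiol arrays lay below all unstimulated arrays, and the kept probe set was dim in this comparison, above the 40th percentile on 2 of 6 arrays. The change was -0.70 ± 0.12 (SE, n = 3 each; limma adjusted p = 0.0151), with an adjusted p of 0.120 in a fit of all 12 arrays. Without unstimulated replicate 1 or 3 the limma adjusted p was 0.0625 or 0.0598, and without estradiol replicate 3 it lay just above the threshold. The other Egln3 probe set was also called lower, with a change of -0.37 and a limma adjusted p of 0.0305 over all probe sets, and was above the 40th percentile on no array.

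Aldoc, an aldolase of glycolysis best known from brain, had levels of 12.41, 12.21 and 12.43 in estradiol cells, against 12.72, 12.82 and 12.71 in unstimulated cells. The groups were apart, with estradiol replicate 2 the lowest. Its change was -0.40 ± 0.07 (SE, n = 3 each; limma adjusted p = 0.0169), and 0.0562 to 0.0760 with any 1 unstimulated array left out. The second Aldoc probe set, 1424714_at, was at 10.72, 10.92 and 10.81 with estradiol and at 11.48, 11.52 and 11.59 without, a larger change of -0.71 ± 0.07 (limma adjusted p = 0.00169 over all probe sets).

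Slc2a1, the glucose transporter GLUT1, stood on the other side, with 13.05, 12.98 and 13.00 in estradiol cells against 12.90, 12.82 and 12.88 in unstimulated cells. The groups did not overlap, and the difference was 0.14 ± 0.05 (SE, n = 3 each; limma adjusted p = 0.112). All 3 of its probe sets had a positive difference, of 0.14, 0.17 and 0.14, and the groups were apart on each. Ndrg1 was at 11.99, 12.17 and 12.06 with estradiol and at 11.88, 11.90 and 11.99 without, a difference of 0.15 ± 0.06 (limma adjusted p = 0.190), its groups separated by a narrow gap. On its other probe sets the groups overlapped, with differences of -0.04 to 0.15.

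Hif1a itself was at 12.60, 12.53 and 12.50 in estradiol cells, against 12.43, 12.43 and 12.40 in unstimulated cells, which do not overlap. The difference was 0.12 ± 0.05 (limma adjusted p = 0.169), and its 4 probe sets gave differences of -0.15 to 0.12. Pdk1, the kinase that switches off pyruvate dehydrogenase, differed by -0.10 ± 0.06, and Vegfa, the vessel growth factor, by -0.08 ± 0.07 (limma adjusted p = 0.303 and 0.515). Their estradiol and unstimulated arrays overlapped.

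Over all 9 genes the estradiol and unstimulated arrays were apart for 7, with 3 higher and 4 lower, where 19.9% of all genes were apart and higher and 14.9% apart and lower. Of the 22 probe sets, 6 were called lower and none higher, against 4.24% of all probe sets called lower. These 6 belong to the same 4 genes. In the RAW264.7 arrays the summed intensity of T cell markers was 7800 to 8288 in estradiol cells and 10223 to 10527 in unstimulated cells, from Il7r and Cd28 above all, and Cd3e stayed below the 40th percentile on every array. B cell marker sums were 480 to 507 in estradiol cells and 659 to 776 in unstimulated cells, from Ighm above all. Endothelial sums were 459 to 607 in estradiol cells and 772 to 870 in unstimulated cells, from Vwf above all. Neutrophil marker sums ran the other way, at 716 to 728 in estradiol cells and 472 to 522 in unstimulated cells. That rise came mostly from S100a8, at 302 to 326 with estradiol and 77 to 116 without, while 5 of the 8 measured neutrophil markers had a negative change. None of these 4 sums overlapped between the groups. Single markers went both ways, with a positive change in 7 of 12 T cell, 3 of 7 B cell and 4 of 6 endothelial markers. The part of these marker transcripts in the changes was not tested.

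**Figure D2:**
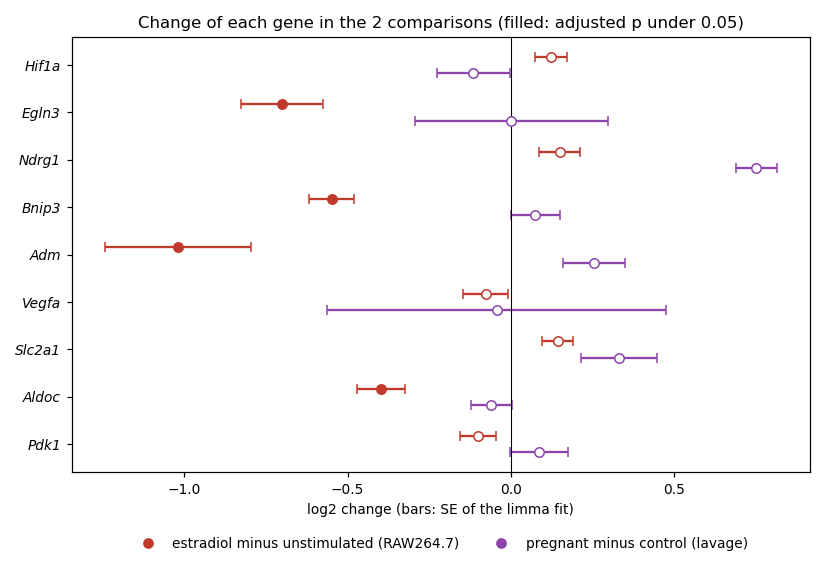
Change of each of the 9 genes on the log2 scale, estradiol minus unstimulated in RAW264.7 cells and pregnant minus control in lavage macrophages; bars are the SE of the limma fit and filled points have an adjusted p under 0.05. The filled points are Adm, Egln3, Bnip3 and Aldoc with estradiol, from -1.02 to -0.40, and the pregnancy value farthest above 0 is that of Ndrg1 at 0.75.

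No gene on a list of HIF regulators was called with estradiol at the main settings. Of 15 listed regulators 12 were measured, 0 were called by limma and 2 had an unadjusted p under 0.05, with a median change of 0.01. These 2 were Crebbp, a coactivator of HIF, with 0.36 ± 0.10 (limma adjusted p = 0.0605), and Arnt, the constant partner subunit, with -0.18 ± 0.06 (limma adjusted p = 0.0917). Egln1, the main oxygen sensor of the EGLN family, differed by -0.00 ± 0.05, and Egln2 by -0.03 ± 0.09. With quantile normalization 1 of the 12 was called, lower, and with a common median 1 was called, higher. Over 14 alternatives Crebbp was called in 6 and Arnt in 4.

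HIF targets outside the 9 genes were called in both directions with estradiol. Of 34 listed targets 29 were measured, 3 were called higher and 2 lower, against 6.75% and 4.66% of all genes, and the median was -0.03. Ddit4, a stress-induced inhibitor of mTORC1, rose by 1.10 ± 0.08 (limma adjusted p = 0.000433), and Hilpda, a lipid droplet protein, rose by 0.69 ± 0.06 (limma adjusted p = 0.00100). Cited2, which competes with HIF for its coactivators, rose by 0.23 ± 0.06 (limma adjusted p = 0.0492, called in 8 of 14 alternatives). Bhlhe40, a transcriptional repressor, fell by 0.49 ± 0.05, and Stc2, a secreted glycoprotein, fell by 0.61 ± 0.08 (limma adjusted p = 0.00229 and 0.00427). In a fit of all 12 arrays the adjusted p of Ddit4 was 0.0602. Of 14 listed glycolytic enzymes 11 were measured, and limma called 0 while 3 had an unadjusted p under 0.05. The median change of these enzymes was -0.06, and the called glycolytic gene Aldoc is not on that list. With quantile normalization 1 of the 11 was called, lower. Over 14 alternatives Pfkm was called lower in 5 and Tpi1 in 3.

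The pregnancy comparison asks what differed between lavage macrophages of pregnant and control mice. Ndrg1, a cytoplasmic protein known from stress and differentiation, had the smallest p of all 12393 genes, and its level was 1.68-fold higher in pregnant samples. None of the 9 genes was called, and neither was any other gene (0% of 12393; 1163 had an unadjusted p under 0.05 in limma). Since Ndrg1 was chosen on this contrast, its values here describe why it stands in the list. In lavage cells, fewer cells of a type and less RNA per cell cannot be told apart.

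Ndrg1 levels were 9.22, 9.36 and 9.30 in pregnant samples, against 8.54, 8.54 and 8.54 in control samples. The groups are well apart, and the control arrays lie close together, with an SD of 0.0034 against 0.069 in the pregnant arrays. The fitted difference was 0.75 ± 0.06 (SE, n = 3 each; limma adjusted p = 0.115). With dim genes left out, so that 7580 genes were tested, the adjusted p was 0.0420, and with the spread estimated from all 12 arrays it was 0.00116. With the mean of the gene's probe sets the difference was 0.52 (limma adjusted p = 0.338).

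The other 4 probe sets of Ndrg1 did not all show the same difference. Probe set 1450976_at was at 8.32, 8.30 and 8.25 in pregnant samples, against 7.69, 7.57 and 7.44 in control samples. Probe set 1420760_s_at was at 8.60, 8.62 and 8.65 in pregnant samples, against 8.21, 7.92 and 7.94 in control samples. Both had groups that did not overlap, with differences of 0.73 and 0.60, and both had a wider spread among controls (SD 0.13 and 0.16) than the kept probe set. Probe set 1423413_at, dim in lavage, was at 5.39, 5.42 and 5.67 in pregnant samples, against 5.25, 4.66 and 5.04 in control samples, a difference of 0.51. Probe set 1450977_s_at, also dim in lavage, was at 6.32, 6.10 and 6.43 in pregnant samples, against 6.22, 6.37 and 6.22 in control samples, where the groups overlap and the difference was 0.01. The kept probe set carries the _x_at suffix, which Affymetrix gives to sets with probes that can match other sequences.

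**Figure D3:**
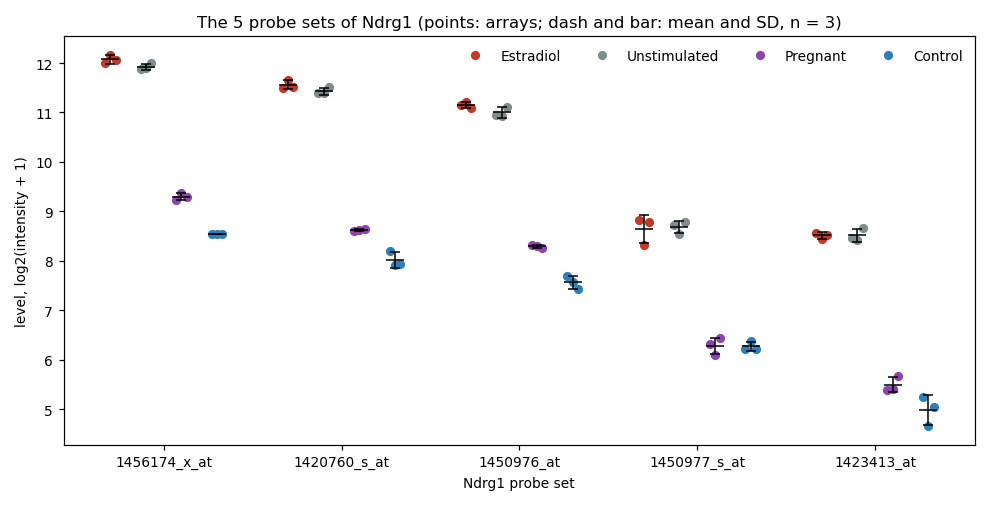
The 5 probe sets of Ndrg1 as log2(intensity + 1) on each array of the estradiol, unstimulated, pregnant and control groups, with mean and SD (n = 3). Pregnant lies above control without overlap on 4 probe sets, by 0.51 to 0.75, and the groups overlap on 1450977_s_at.

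Slc2a1 and Adm were the other genes whose pregnant and control arrays did not overlap. Slc2a1 was at 11.86, 12.14 and 11.81 in pregnant samples, against 11.76, 11.60 and 11.46 in control samples. All pregnant arrays lay above all control arrays. The highest was pregnant replicate 2, the lavage array with the largest actin 3' to 5' difference. The Slc2a1 difference was 0.33 ± 0.12 (SE, n = 3 each; limma adjusted p = 0.485), and 0.23 to 0.41 with 1 array left out. Its other 2 probe sets gave 0.37 and 0.36, with an overlap on 1 of them. Adm was at 4.93, 4.90 and 4.93 in pregnant samples, against 4.87, 4.59 and 4.55 in control samples, with a gap between pregnant replicate 2 and control replicate 1 that is small beside the spread among controls. Adm was dim on all 6 lavage arrays, and its difference was 0.26 ± 0.10 (limma adjusted p = 0.499).

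Groups that were apart and higher in pregnant samples thus numbered 3 of 9 genes, where 10.7% of all genes had that pattern. Among the 22 probe sets 7 were apart and higher and 1, the dim Hif1a probe set 1431981_at, was apart and lower, against 9.20% and 6.66% of all probe sets. Nothing is read from these counts, since the list was drawn up with the contrast known.

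The other 3 genes called with estradiol had pregnant and control arrays that overlapped. Bnip3 was at 11.37, 11.36 and 11.51 in pregnant samples, against 11.29, 11.30 and 11.43 in control samples, a difference of 0.07 ± 0.07 with overlapping groups. Aldoc was at 11.88, 11.79 and 11.89 in pregnant samples, against 11.87, 11.91 and 11.96 in control samples, and its difference was -0.06 ± 0.06. Its second probe set differed by -0.24, again with an overlap. Egln3, dim on all 6 lavage arrays, was at 6.18, 6.65 and 5.95 in pregnant samples, against 6.44, 6.68 and 5.65 in control samples, with a difference of 0.00 ± 0.30.

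Hif1a was at 12.28, 12.42 and 12.02 in pregnant samples, against 12.43, 12.37 and 12.28 in control samples. The groups overlap, and the difference was -0.11 ± 0.11. Pdk1 was at 9.53, 9.45 and 9.71 in pregnant samples, against 9.49, 9.55 and 9.38 in control samples, also overlapping, with a difference of 0.09 ± 0.09.

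Vegfa varied most among the lavage arrays. It was at 6.10, 7.18 and 5.64 in pregnant samples, against 7.23, 5.58 and 6.25 in control samples. The groups span nearly the same range, the difference was -0.04 ± 0.52, and the probe set was dim on all 6 arrays. The arrays with the highest Vegfa, control replicate 1 and pregnant replicate 2, were also the highest of the 6 in summed neutrophil and epithelial markers. Epithelial markers summed to 22272, 27717 and 16099 in pregnant samples and to 24016, 14146 and 18581 in control samples. Neutrophil markers summed to 8417, 11424 and 6418 in pregnant samples and to 20688, 6569 and 6024 in control samples. Of the epithelial markers, Sftpc, Sftpa1, Scgb1a1, Epcam, Krt18 and Cdh1 were above the 40th percentile on all 6 arrays. Of the neutrophil markers, S100a8, S100a9, Ltf and Csf3r were above that percentile on all 6 arrays, and Elane, Mpo, Camp and Ngp were below it on all 6. The part of these marker transcripts in the Vegfa level was not tested.

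**Figure D4:**
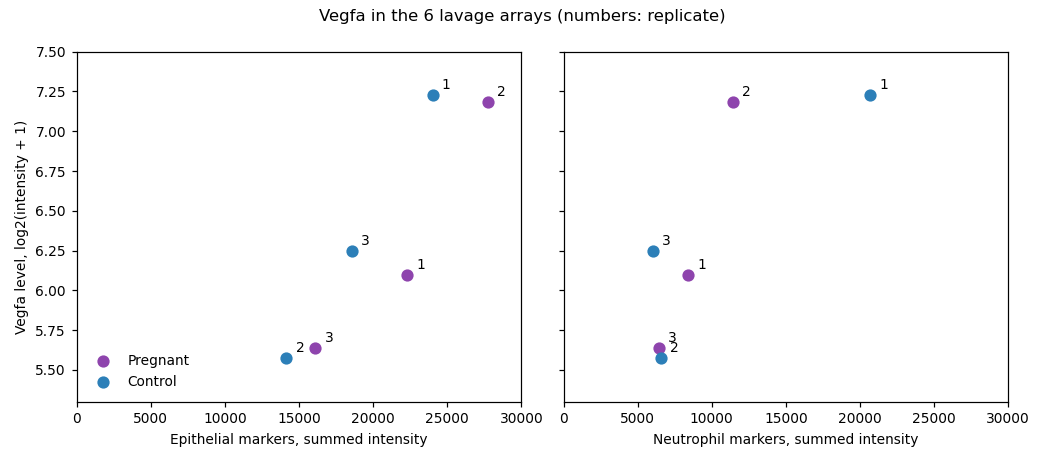
Vegfa level, log2(intensity + 1), on the 6 lavage arrays against the summed intensity of 10 epithelial markers (left) and of 8 neutrophil markers (right); each point is an array of the pregnant or control group, with its replicate number. Control replicate 1 at 7.23 and pregnant replicate 2 at 7.18 lie at the top, and both have the highest sums on each axis.

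Endothelial marker sums were 2280 to 2946 in pregnant samples and 1876 to 2056 in control samples, without overlap, mostly from Vwf at 2123 to 2788 in pregnant and 1722 to 1885 in control samples. That was 1 of 6 endothelial markers above the 40th percentile. Epithelial marker sums overlapped between the groups, and 7 of the 10 epithelial markers had a positive difference, with a median of 0.55, 0 called by limma and 3 at an unadjusted p under 0.05. These 3 were Epcam, at 2129 to 3146 in pregnant and 1450 to 1578 in control samples, Sftpb, at 140 to 262 in pregnant and 103 to 122 in control samples, and Cdh1, lower at 3388 to 3874 in pregnant and 4250 to 4769 in control samples. T cell marker sums overlapped between the groups, while 8 of the 12 measured T cell markers had a negative and 4 a positive difference, with a median of -0.33. Cd3e was above the 40th percentile on 2 of 3 control arrays and on 0 pregnant arrays. The part of endothelial, epithelial and T cell transcripts in the Ndrg1, Slc2a1 and Adm differences was not tested. Macrophage marker sums were 120809 to 123450 in pregnant samples and 120328 to 126851 in control samples.

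In pregnancy limma called 0 of the 12 regulators, of the 29 other targets and of the 11 glycolytic enzymes, with 1, 2 and 1 genes at an unadjusted p under 0.05 and medians of 0.00, -0.01 and 0.05. The smallest p-values among regulators were those of Crebbp (-0.18 ± 0.07), Egln2 (0.14 ± 0.06) and Eloc, a subunit of the VHL ligase (0.12 ± 0.06). Among other targets they were those of Cxcr4, a chemokine receptor (-0.25 ± 0.08), Pfkfb3, which makes an activator of glycolysis (-0.27 ± 0.09), and Kdm3a, a histone demethylase (-0.15 ± 0.06). Among glycolytic enzymes they were those of the phosphofructokinases Pfkm, dim on all 6 arrays (-0.49 ± 0.12), Pfkl (0.28 ± 0.16) and Pfkp (0.11 ± 0.06). The limma adjusted p of these 9 genes lay between 0.432 and 0.622.

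The rule did not use the difference between the unstimulated cell line and control lavage macrophages. Source, culture and direct processing cannot be told apart in it, and it shares its arrays with the other comparisons. The fitted change was negative for all 9 genes, where 42.7% of all genes had a positive change. Of the 9 genes 8 were called lower, and Hif1a, whose groups overlapped, was not called. Over all genes 34.0% were called lower and 27.9% higher, and the median change was -0.07 against -1.26 for the 9 genes. Of the 22 probe sets 17 were called lower, against 35.4% of all probe sets.

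Ndrg1 had the largest difference, -3.38 ± 0.05 (SE, n = 3 each; limma adjusted p = 3.80e-08), 10.4-fold lower in control lavage samples. Its 5 probe sets differed by -3.53 to -2.42, and all were called. Adm differed by -2.95 ± 0.21 and Vegfa by -2.70 ± 0.39 (limma adjusted p = 3.61e-05 and 0.000986), both with a dim level in lavage. The second Vegfa probe set differed by -0.81 ± 0.21.

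Genes of glucose use were lower as well. Pdk1 differed by -1.89 ± 0.06, Slc2a1 by -1.26 ± 0.08 and Aldoc by -0.84 ± 0.05, with limma adjusted p-values of 1.17e-06, 2.22e-05 and 1.91e-05. Bnip3 differed by -0.96 ± 0.07 (limma adjusted p = 3.07e-05) and Egln3 by -1.12 ± 0.26 (limma adjusted p = 0.00991), although the second Egln3 probe set overlapped between the sources, with -0.18 ± 0.25. Hif1a differed by -0.06 ± 0.05 (limma adjusted p = 0.341), and its 4 probe sets gave -0.32 to 0.20 with none called.

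Other genes of the pathway were called in both directions between the sources. Of 12 regulators 4 were higher and 4 lower in control lavage samples (median -0.01), among them Crebbp (1.52 ± 0.05), Egln1 (1.47 ± 0.06), Arnt (-1.17 ± 0.07) and Eloc (-0.38 ± 0.05), whose sign was positive with the mean of its probe sets. Of 29 other targets 8 were higher and 14 lower (median -0.21). By smallest p these were Stc2 (-2.16 ± 0.05), Car12, a carbonic anhydrase (-2.19 ± 0.07), Higd1a, a mitochondrial protein (-0.94 ± 0.04), and Bhlhe40 (1.00 ± 0.05). The other 2 Higd1a probe sets gave 0.21 and -0.01 and were not called (limma adjusted p = 0.0621 and 0.907 over all probe sets). Of 11 glycolytic enzymes 1 was higher and 9 were lower (median -0.61), led by Tpi1 (-1.20 ± 0.05), Pfkm (-2.87 ± 0.11), Hk1 (-1.92 ± 0.11) and Pgk1 (-0.72 ± 0.05). The limma adjusted p of these 12 named genes, each by its highest-mean probe set, was at most 0.000639.

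Members of the same families differed in their source pattern. Control lavage samples differed from unstimulated cells by -7.79 ± 0.07 for Ndrg4 and by -6.28 ± 0.07 for Ndrg2, whose lavage levels were dim, and by 0.06 ± 0.08 for Ndrg3 (limma adjusted p = 1.26e-08, 1.97e-08 and 0.538). The second Ndrg3 probe set was called lower, with -0.34 ± 0.08 (limma adjusted p = 0.0108 over all probe sets). In pregnancy Ndrg4 differed by -0.38 ± 0.09, Ndrg2 by -0.21 ± 0.09 and Ndrg3 by -0.00 ± 0.08, none called by limma. Pdk4 ran opposite to Pdk1 between the sources, 7.58 log2 units higher in control lavage samples beside a dim level in the cell line. Pdk2 was 2.03 higher, and Pdk3 had a change of -0.21 (limma adjusted p = 0.00989 or less for the 3 genes). With estradiol, Pdk2 differed by 0.27 ± 0.11, Pdk3 by -0.22 ± 0.06 and Pdk4 by -0.25 ± 0.19, and limma called none of the 3 at the main settings. Over 14 alternatives Pdk3 was called in 4 and Pdk2 in 2.

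**Figure D5:**
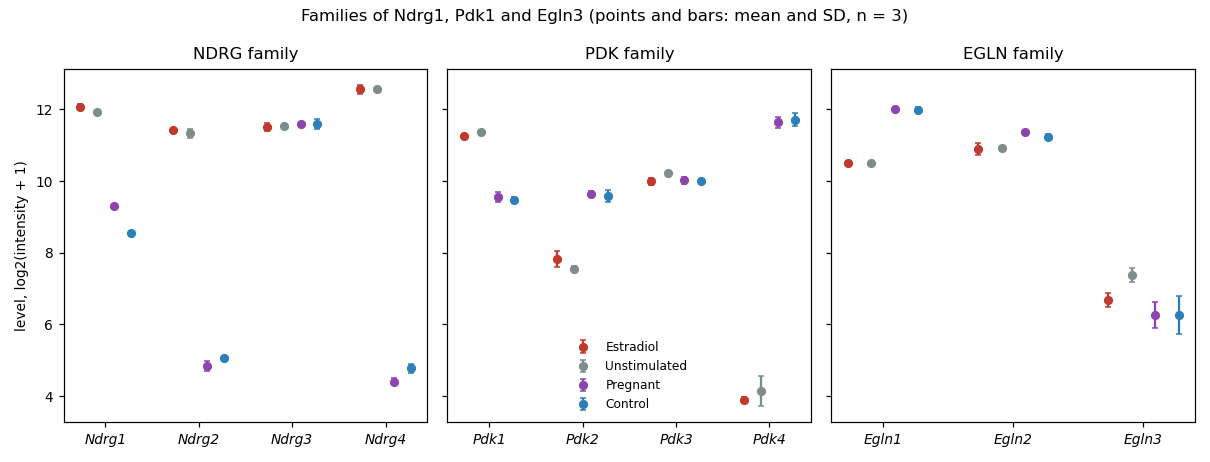
Mean level and SD (n = 3) of the NDRG, PDK and EGLN families as log2(intensity + 1) in the estradiol, unstimulated, pregnant and control groups; heights of different genes are not comparable. Ndrg1, Ndrg2 and Ndrg4 lie lower and Pdk2 and Pdk4 higher in lavage samples than in RAW264.7 cells, and the Ndrg3 probe set shown lies at about the same level in all 4 groups.

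Groups were ordered by the mean level of each gene's highest-mean probe set. Ndrg1 and Slc2a1 ran from estradiol through unstimulated and pregnant to control, with each neighbour apart from the next. On the other Ndrg1 probe sets the estradiol and unstimulated arrays overlapped, and on Slc2a1 probe set 1426599_a_at the pregnant and control arrays did. Adm ran from unstimulated through estradiol and pregnant to control, also apart at each step. Bnip3 shared that order, but its pregnant and control arrays overlapped. Aldoc ran from unstimulated through estradiol and control to pregnant, and its lavage groups overlapped. For Pdk1 and Vegfa the 2 cell-line groups overlapped, as did the 2 lavage groups, and for Hif1a and Egln3 only the 2 cell-line groups were apart from each other as neighbours.

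Patterns most like that of Ndrg1 were sought over all 12 arrays, after centring each gene on the mean of its source. By the root mean square difference the nearest were Clstn1 (0.0967), Rtl6 (0.117), Csrp1 (0.121), Sh2b2 (0.122) and Trpv4 (0.135), which were 0.49 to 0.60 higher in pregnant samples. The nearest of the other 8 genes, Slc2a1, ranked 95th with 0.178 when predicted genes were counted too. For Bnip3 the nearest were Havcr2 (0.0534), Rcbtb2 (0.0630), Itpr2 (0.0741), Bcar3 (0.0764) and Tomm40l (0.0773), whose estradiol changes were -0.65 to -0.47. Aldoc ranked 98th with 0.119, again with predicted genes counted. That the nearest genes changed much as Ndrg1 or Bnip3 did follows from how they were picked.

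The pregnancy change minus the estradiol change was fitted over all 12 arrays. It was called for 3 of the 9 genes, Adm, Bnip3 and Ndrg1, all positive, where 4.43% of all genes were called and 2.21% were positive. For Adm and Bnip3 the estradiol change was the negative term, and for Ndrg1 the pregnancy change was the larger positive one. Both terms were known when the list was drawn up, so these calls are no independent evidence. The call of Adm was lost without estradiol replicate 3, control replicate 2, control replicate 3 or pregnant replicate 3 (limma adjusted p = 0.0509 to 0.0591). Of the Ndrg1 probe sets other than the kept one, 1450976_at was called, with 0.58, and those not called gave 0.05 to 0.51. Aldoc, which was called in 4 of 20 alternatives (limma adjusted p = 0.0133 to 0.0498), gave 0.34 ± 0.09 (limma adjusted p = 0.0757) and Egln3 0.70 ± 0.35 (limma adjusted p = 0.310).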

How the data were processed

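The 12 arrays were grouped by their group label, 3 per group, and no column was left unused. Per the submitters' processing notes the authors made the deposited intensity values with RMA, for which no version is given in the sources used here. The values ran from 6.51 to 28506 and were taken as log2(intensity + 1). Of 22690 probe sets, 20380 had exactly 1 gene symbol in the platform annotation and were used. Control probe sets (64), those listing several symbols (691) and those without a symbol (1555) were not. For the gene tests the probe set with the highest mean was kept (12393 genes, 4956 of them with several probe sets). Each comparison was fitted in limma 3.58.1 (R 4.3.3; lmFit, eBayes, constant prior) on its 6 arrays, and the difference between changes on all 12. Tests were two-sided with Benjamini-Hochberg adjustment over all genes, or over all probe sets where stated. Calls needed an adjusted p under 0.05. For arrays their number limits the precision. Fits were tested on simulated data.

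The members, gene lists and tests were chosen with earlier results of these data known. Named are all 9 genes and their probe sets, the NDRG and PDK families, up to 4 called genes by smallest p per list (3 smallest p in pregnancy), and the 5 nearest genes to Ndrg1 and to Bnip3. Predicted genes were left out of the 5 nearest but were counted in the ranks of the members. Egln1, Egln2 where not among the smallest p, Cited2 and single marker genes were named after their values were seen. Alternatives were quantile normalization, a common median, a filter on dim genes, the mean of probe sets, a robust prior, array weights, all 12 arrays, all probe sets and each array left out. A fit without the pseudocount was chosen after seeing the data. Promoters came from RefSeq (GRCm38.p6), and positions of probe sets were not analysed here. Tables and plots were made in Python 3.11.15 (matplotlib 3.10.9, numpy 2.4.6, pandas 2.3.3).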

Additional observations from a re-analysis of the deposited data

Results flagged for a closer look

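The change in pregnancy and the change with estradiol differed for 3 of the 9 genes in limma's test of the difference itself, over all 12 arrays and adjusted over 12393 genes, of which 549 were called. Both changes were known when the genes were chosen, so these are descriptions. Adm had a difference of 1.27 ± 0.27 (SE; limma adjusted p = 0.0254), from a change of 0.26 in pregnant against control samples and of -1.02 in estradiol against unstimulated cells, and it was dim in lavage. Bnip3 had a difference of 0.62 ± 0.10 (limma adjusted p = 0.00714), from 0.07 in pregnancy and -0.55 with estradiol. Ndrg1 had a difference of 0.60 ± 0.08 (limma adjusted p = 0.00318), from 0.75 in pregnancy and 0.15 with estradiol, on its highest-mean probe set. Of its other probe sets, 1450976_at was called, with 0.58 ± 0.11 (limma adjusted p = 0.0164 over all probe sets). The remaining Ndrg1 probe sets gave 0.05 to 0.51 and were not called (limma adjusted p = 0.0541 to 0.919 over all probe sets). The test compares cells of different source, culture and handling, which cannot be told apart. Groups of 3 arrays are too small for the test of single arrays that stand apart.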

How the results depend on the processing

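No paired analysis was possible because the replicate numbers follow deposit order only. The direction of the 4 estradiol calls and of the 8 source calls was kept under every alternative tried, and the source calls were kept as calls. Estradiol calls over all genes numbered 1414, 4010 with array weights and 637 to 1730 with 1 array left out, and calls among the 9 genes were 2 to 4 with 1 array left out. With array weights 1 fit did not fully converge. In pregnancy 0 genes were called, 1 with the filter on dim genes (Ndrg1), 18 with all 12 arrays, and 0 to 2 with 1 array left out (2 without control replicate 1). Among the 9 genes 1 was called with that filter and 1 with all 12 arrays, Ndrg1 each time. Source calls numbered 7671 genes, and 12704 probe sets where all 20380 were tested. Differences between the 2 changes numbered 549, 1394 with array weights and 263 to 573 with 1 array left out. With the mean of probe sets the sign turned for values that were not called, to -0.011 for Hif1a, 0.043 for Vegfa and 0.0039 for Pdk1 with estradiol, to -0.22 for Egln3 in pregnancy, to 0.00027 for Hif1a between sources and to -0.12 for Vegfa in the difference between changes. Egln3 in pregnancy was -0.055 after quantile normalization and -0.30 to 0.21 with 1 array left out, Vegfa in pregnancy was -0.48 to 0.39, and Vegfa in the difference between changes was -0.40 to 0.47. The cause was not tested. Slc2a1 was called higher with estradiol under the filter on dim genes, the robust prior and array weights (limma adjusted p = 0.0470, 0.0170 and 0.0218), and Ndrg1 under array weights (0.0475). Adm and Vegfa in pregnancy, and Egln3 in every comparison, had no value under the filter on dim genes. Signal over background could not be read from detection calls, so the dim genes Adm, Egln3 and Vegfa are limited in lavage.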
